A study of Saccharomyces cerevisiae with 12 samples.

Results

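The transcripts described here are those of 10 nuclear genes for subunits of the mitochondrial ATP synthase of budding yeast, Saccharomyces cerevisiae: ATP1, ATP2, ATP3, ATP16, ATP15, ATP4, ATP5, ATP7, ATP14 and ATP17. They were taken by their gene identifiers, 10 of the 7127 features in the count table, with earlier results of these data known. RNA sequencing of 12 cultures gave 3 libraries in each of 4 groups. The first group was an NTT1 strain treated with 5 mM ATP in the medium for 1 h, and the second was the same strain left untreated. The third was a wild-type (WT) strain with an empty vector under the same ATP treatment, and the fourth was untreated WT. NTT1 is a nucleotide transporter of the parasite Encephalitozoon cuniculi. In the NTT1 strain it is labelled PH-NTT1, integrated at a genomic locus in the BY29034 background, together with QUEEN, a fluorescent sensor of ATP. The strain comparisons therefore cover the transporter and the reporter together, and the labels do not name a promoter for the construct. The 6 WT samples each carry a different source name, while the NTT1 samples share one. Whether the WT samples are one strain is not known here. A difference between them could not be told apart from the spread of replicates or from the ATP treatment. All cultures were grown in complete synthetic medium at 30 °C to mid-log phase, and the carbon source is not given in the sources used here. The construct itself was not analysed here, so the strain of a library rests on its label.

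The ATP synthase sits in the inner mitochondrial membrane and makes ATP from ADP and phosphate, driven by protons that flow back through it from the respiratory chain. Its F1 head carries the catalytic sites on subunits alpha and beta, around a central stalk that turns, while a peripheral stalk holds the head still against the membrane part. Nearly all its subunits are encoded in the nucleus and a few in mitochondrial DNA. Budding yeast raises nuclear genes for respiration when it leaves fermentation, in part through the HAP complex, which binds CCAAT sequences and whose activating subunit is Hap4.

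Of the 10 genes, 5 encode the F1 head and central stalk. In the R64 build, ATP1 (subunit alpha, YBL099W) lies on chromosome II at 37053-38690, ATP2 (beta, YJR121W) on chromosome X at 647607-649142 and ATP3 (gamma, YBR039W) on chromosome II at 315575-316510. ATP16 (delta, YDL004W) lies on chromosome IV at 443029-443511 and ATP15 (epsilon, YPL271W) on chromosome XVI at 30079-30267. A further 4 encode the peripheral stalk: ATP4 (subunit b, YPL078C) on chromosome XVI at 408010-408744, ATP5 (OSCP, YDR298C) on chromosome IV at 1058176-1058814, ATP7 (d, YKL016C) on chromosome XI at 407465-407989 and ATP14 (h, YLR295C) on chromosome XII at 721999-722373. ATP17 (f, YDR377W), on chromosome IV at 1228611-1228916, belongs to the membrane part. The 4 peripheral stalk genes are on the minus strand and the other 6 genes on the plus strand. Each gene has 1 coding exon, and no other gene of the RefSeq annotation overlaps any of them.

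The region before the start codon is shown for 4 genes. The CCAAT sequence is the known binding site of the HAP complex, and its part in the members' levels was not tested. Taking each member's smallest p-value over the comparisons below, the 4 are the 3 with the lowest (ATP14, ATP4 and ATP7) and the 1 with the highest (ATP17). Each line is the gene's own strand from 250 bases before the start codon to 50 bases from it on, read from the RefSeq genome of build R64, and capitals mark CCAAT or its reverse complement ATTGG.
ATP14, chrXII:722324-722623, minus strand: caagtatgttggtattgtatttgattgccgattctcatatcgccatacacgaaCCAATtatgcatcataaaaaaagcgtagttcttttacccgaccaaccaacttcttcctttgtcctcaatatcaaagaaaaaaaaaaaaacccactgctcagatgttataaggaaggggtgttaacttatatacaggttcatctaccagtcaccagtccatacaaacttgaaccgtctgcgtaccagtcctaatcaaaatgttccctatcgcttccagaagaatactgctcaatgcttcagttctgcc
ATP4, chrXVI:408695-408994, minus strand: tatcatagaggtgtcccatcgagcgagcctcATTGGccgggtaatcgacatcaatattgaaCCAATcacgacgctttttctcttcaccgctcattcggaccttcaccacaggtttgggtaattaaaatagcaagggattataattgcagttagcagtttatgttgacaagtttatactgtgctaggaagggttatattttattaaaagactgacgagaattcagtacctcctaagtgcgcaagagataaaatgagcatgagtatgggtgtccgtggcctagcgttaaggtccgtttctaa
ATP7, chrXI:407940-408239, minus strand: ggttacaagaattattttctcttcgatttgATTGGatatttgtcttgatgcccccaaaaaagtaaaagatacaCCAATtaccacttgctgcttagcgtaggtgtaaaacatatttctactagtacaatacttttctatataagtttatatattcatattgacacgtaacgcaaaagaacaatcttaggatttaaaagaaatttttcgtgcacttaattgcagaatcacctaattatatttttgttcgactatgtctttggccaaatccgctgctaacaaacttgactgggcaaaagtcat
ATP17, chrIV:1228361-1228660, plus strand: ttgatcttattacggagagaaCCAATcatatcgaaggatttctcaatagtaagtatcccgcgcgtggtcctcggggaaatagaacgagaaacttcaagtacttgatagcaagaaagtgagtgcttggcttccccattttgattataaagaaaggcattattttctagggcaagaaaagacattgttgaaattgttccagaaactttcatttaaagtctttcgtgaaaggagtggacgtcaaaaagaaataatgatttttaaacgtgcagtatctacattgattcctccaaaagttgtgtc

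CCAAT was found on either strand in 9 of the 10 members' windows, against 43.3% of the 6001 windows of all genes searched. ATP1 was the member without it. The longer form ACCAATNA, which contains CCAAT and was also searched on both strands, was found in 6 members (ATP3, ATP15, ATP4, ATP7, ATP14 and ATP17) and in 5.75% of all windows. Counted from the A of the start codon, CCAAT on the gene's strand began at position -197 in ATP14, -189 in ATP4, -177 in ATP7 and -229 in ATP17. TTACCCG, the core site of the general factor Reb1, was found in ATP4 and ATP14, against 7.08% of all windows. The site of the general factor Abf1 was found in ATP16 and ATP14, against 12% of all windows. These matches describe letters in the window and were not tested as binding sites.

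Library totals ranged from 14845855 to 20714804 counts, and a member had between 1110 and 31186 counts in a library, so counting error was small beside the spread between replicates. All 10 members passed the filter on low counts, which left 6157 genes for testing. Levels are given as normalised counts (CPM), a share of the library scaled by TMM, so that less RNA per cell and fewer cells holding it cannot be told apart. In a principal component analysis of all genes tested, 1 WT library without ATP stood apart from its group: the first component (47.0% of the variance) placed replicates 1 and 2 at -21.5 and -25.5 and replicate 3 at 1.81. The other groups spanned 11.5 to 14.3 in NTT1 with ATP, -9.12 to -6.91 in NTT1 without ATP and 8.53 to 11.6 in WT with ATP. The members' results are therefore also given without replicate 3, as are the calls in other gene lists that changed without it.

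The ATP synthase genes were among the more abundant transcripts, but not at one common level. Per kb of coding length, mean levels over the 12 libraries ran from 900 ± 115 CPM per kb for ATP2 (SD, n = 12) to 232 ± 31.3 CPM per kb for ATP14, a 3.87-fold range. These are the 95.8 and 87.3 percentiles of 5775 genes with a coding length, whose median was 46.0 CPM per kb. ATP15, for the small epsilon subunit, was next to the top at 882 ± 115 CPM per kb, and its range overlapped that of ATP2. Then came ATP17 at 538, ATP1 at 509, ATP16 at 479, ATP5 at 420, ATP3 at 412, ATP4 at 402 and ATP7 at 379 CPM per kb. Neighbours in this order overlapped in range over the 12 libraries, except ATP15 over ATP17 and ATP7 over ATP14, which were separate. The coding length is 189 bases for ATP15 and 306 for ATP17, against 1536 for ATP2. Only this length was corrected for, and the annotation used in counting is not given. The place of the shortest genes in this order is therefore uncertain. Subunits alpha and beta are present in equal number in the enzyme, while the level of ATP2 per kb was between 1.72 and 1.89 times that of ATP1 in every library.

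**Figure D1:**
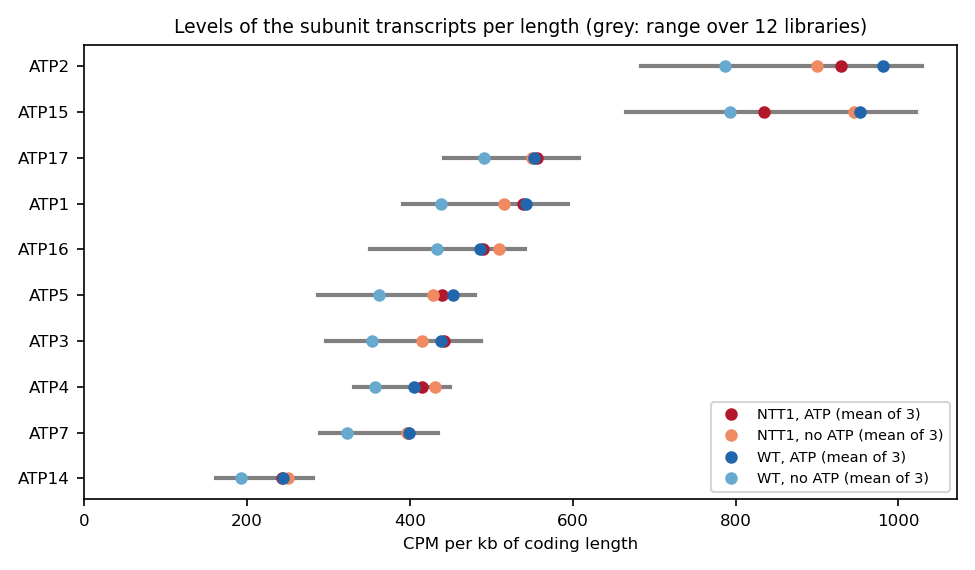
Levels of the 10 subunit transcripts in CPM per kb of coding length (horizontal axis), highest at the top. No other length correction was made. Grey lines are the range over the 12 libraries and points are means of 3 libraries in each group; ATP2 and ATP15 stand above the others and ATP14 below them.

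Among the F1 genes, the catalytic subunit beta had the highest counts. ATP2 was at 1568, 1191 and 1526 CPM in NTT1 with ATP and at 1549.5, 1328 and 1271 CPM in NTT1 without ATP. It was at 1463, 1580.1 and 1479 CPM in WT with ATP, against 1399, 1049.9 and 1180.0 CPM in WT without ATP. The WT groups did not overlap and the NTT1 groups did. ATP1 was at 974, 732 and 941 CPM in NTT1 with ATP and at 932, 824 and 779 CPM in NTT1 without ATP. It was at 848, 935 and 880.0 CPM in WT with ATP, against 848, 640.4 and 666 CPM in WT without ATP. The lowest ATP1 value with ATP in WT lay just above the highest without it, and the NTT1 groups overlapped. ATP3, the central rotor subunit, averaged 413 ± 54.2 CPM in NTT1 with ATP, 389 ± 22.9 in NTT1 without ATP, 410.3 ± 23.3 in WT with ATP and 331 ± 51.7 CPM in WT without ATP (SD, n = 3 each). ATP16, a subunit of the central stalk, averaged 236 ± 26.4, 246 ± 24.7, 234 ± 14.3 and 209 ± 40.9 CPM in the same groups, which all overlapped. ATP15, its partner in the central stalk, was at 163, 142 and 169 CPM in NTT1 with ATP and at 188, 193 and 155 CPM in NTT1 without ATP. It was at 172, 177 and 192 CPM in WT with ATP and at 183, 126 and 142 CPM in WT without ATP. Every ATP15 value of NTT1 with ATP was below every value of WT with ATP, the one member for which these groups were separate.

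Among the stalk genes, ATP14 had the lowest counts and was the only one with untreated WT separate from all other groups, by a narrow gap. It was at 92.8, 82.5 and 97.8 CPM in NTT1 with ATP and at 92.9, 105 and 83.5 CPM in NTT1 without ATP. It was at 86.9, 94.9 and 93.1 CPM in WT with ATP and at 80.0, 60.7 and 75.6 CPM in WT without ATP. Every ATP14 value of untreated WT was below every value of the other 3 groups, with 80.0 CPM the highest in untreated WT and 82.5 CPM the lowest elsewhere. The share of all genes with this pattern was not computed. ATP4, the main strut of the peripheral stalk, was at 329.6, 261 and 324 CPM in NTT1 with ATP and at 329.8, 317 and 303 CPM in NTT1 without ATP. It was at 288, 306 and 298 CPM in WT with ATP and at 291, 243 and 252 CPM in WT without ATP. Untreated NTT1 lay above untreated WT in every library, while the ATP groups overlapped. ATP7 was at 228, 181 and 218 CPM in NTT1 with ATP and at 218, 218 and 188 CPM in NTT1 without ATP. It was at 189, 224 and 215 CPM in WT with ATP and at 191, 152 and 165 CPM in WT without ATP, where the highest untreated library just passed the lowest treated one. ATP5, which joins the stalk to the head, averaged 281 ± 29.3 CPM in NTT1 with ATP, 273 ± 26.7 in NTT1 without ATP, 289 ± 18.9 in WT with ATP and 231 ± 42.6 CPM in WT without ATP. ATP17 averaged 170.3 ± 23.8, 168 ± 11.6, 169 ± 5.85 and 150.1 ± 17.8 CPM in the same groups. For ATP5 the WT groups did not overlap, and for ATP17 they did.

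**Figure D2:**
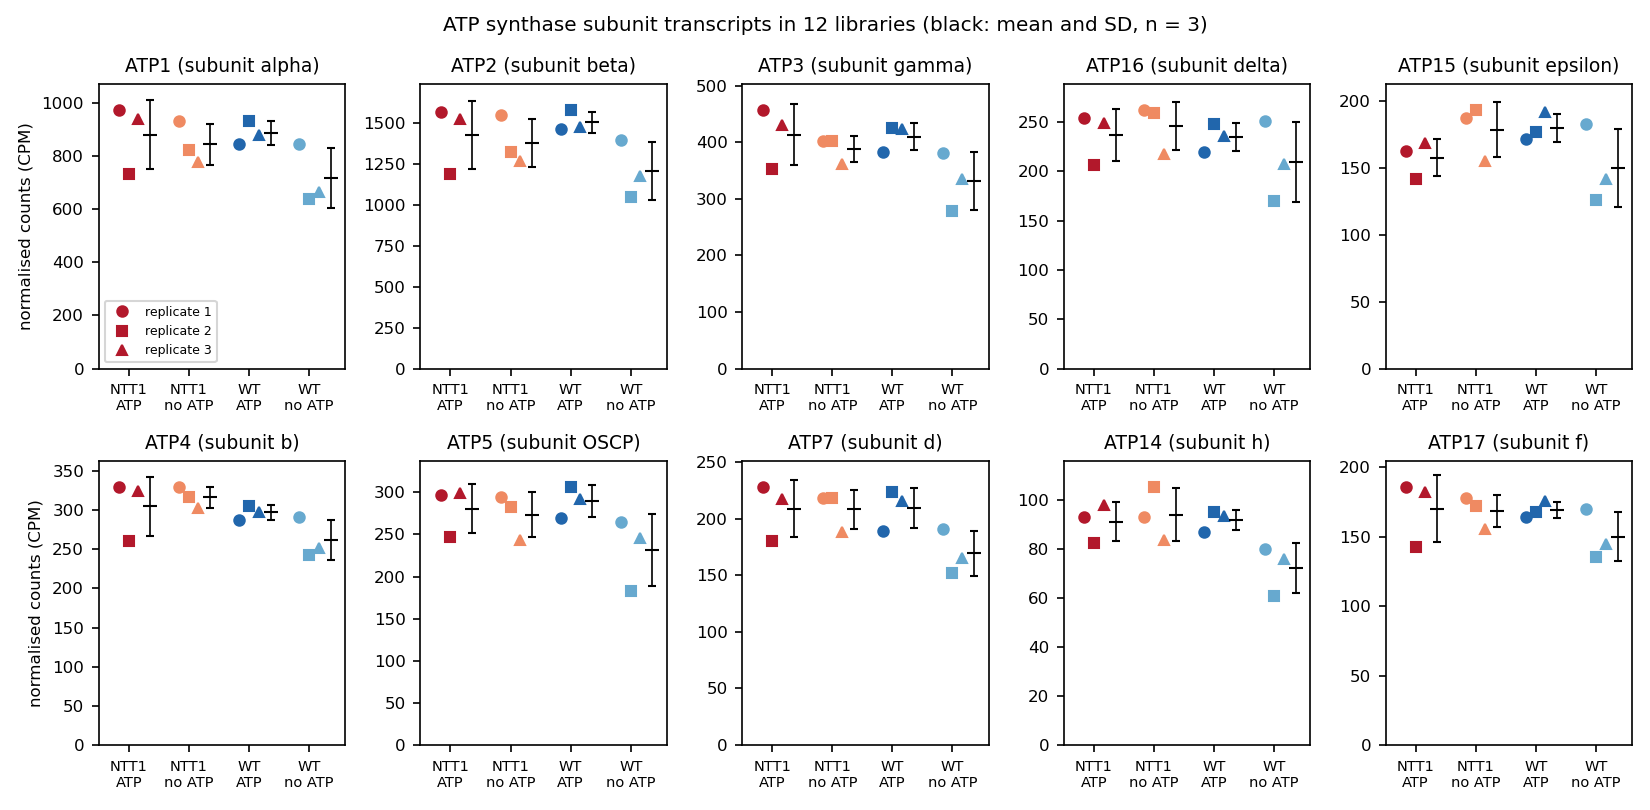
CPM (vertical axes, from 0) of each subunit transcript in the 12 libraries by group; symbols are replicates and black marks the mean and SD of 3 libraries. In WT without ATP, replicate 2 is the lowest of the 12 libraries in every panel.

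ATP in the NTT1 strain left the subunit transcripts at about the level of the untreated strain within the spread of replicates. Summed over the 10 genes, NTT1 with ATP held 4548, 3537 and 4436 CPM (mean 4174 ± 554) and NTT1 without ATP 4446, 4101 and 3758 CPM (mean 4102 ± 344). The fitted log2 fold changes ranged from -0.18 for ATP15 (SE 0.13, adjusted p 0.455 by edgeR's quasi-likelihood test) to 0.089 for ATP3 (SE 0.12, adjusted p 0.709), with a median of 0.01 over the members and -0.003 over all genes. With 6 members above 0 and 4 below, no common direction was seen. None passed the adjusted threshold of 0.05, which 4.47% of all genes did, and none had an unadjusted p under 0.05, against 21.7% of all genes. DESeq2 also called none of them, against 9.52% of its genes, and none was called without untreated WT replicate 3, when 16.7% of all genes were. No member had separate ranges in these groups, while 18.5% of all genes were higher and 17.7% lower in that sense. The standard errors of 0.096 to 0.136 do not exclude small differences.

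In WT, all 10 subunit transcripts had a positive fitted change with ATP, none of which passed the adjusted threshold. The summed level was 4083, 4464 and 4284 CPM in WT with ATP (mean 4277 ± 191) and 4058, 3038 and 3414 CPM in WT without ATP (mean 3503 ± 516), so that treated libraries all lay above untreated ones, with replicate 1 of each group close together. Log2 fold changes ranged from 0.16 for ATP16 (SE 0.14, adjusted p 0.463) to 0.35 for ATP14 (SE 0.11, adjusted p 0.0664), with a median of 0.31 over the members and 0.003 over all genes. Of all genes 12.7% passed the threshold, 5.42% as higher. Among the members 6 (ATP1, ATP2, ATP3, ATP5, ATP7 and ATP14) had a positive change with an unadjusted p under 0.05, which 14.2% of all genes had. Ranges of treated and untreated WT were separate for 5 members (ATP1, ATP2, ATP3, ATP5 and ATP14), all higher with ATP, as were those of 13.4% of all genes. Since the 10 genes deviate together in single libraries, these counts are not 10 separate observations.

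The size of this difference rested on the untreated WT libraries. The count of members with a positive change and an unadjusted p under 0.05 was 6 with all 12 libraries (14.2% of all genes). It was 4 without replicate 3 of untreated WT (21.5% of all genes) and 1 without replicate 2 (10.9%). Without replicate 3 the members' median was 0.27, and ATP14 was called at 0.38 (SE 0.13, adjusted p 0.0370), where 33.7% of all genes were called and 16.3% as higher. Without replicate 2 the median was 0.19 and no member was called, with 3.06% of all genes called. Without replicate 1 it was 0.42, also with no call. DESeq2 called ATP14 at 0.35 (SE 0.12, adjusted p 0.0339), with 18.2% of its genes called. In a fit of the WT groups alone, which called 0.311% of all genes, the adjusted p of ATP14 was 0.161, and over all fits that left out 1 library it lay between 0.0370 and 0.190. The feature YLR294C, numbered next to ATP14 (YLR295C), was singled out after its values were seen. It was higher with ATP in WT by 0.38 (SE 0.094, adjusted p 0.0302), a call that was lost without any one of the other 5 WT libraries than untreated replicate 3 (adjusted p up to 0.106). The RefSeq annotation used does not list it, whether it overlaps ATP14 was not analysed here, and the use of strand in counting is not given in the sources used here, so reads of the pair may not be separable.

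With ATP in both strains, the fitted differences between NTT1 and WT were smaller than their standard errors for every subunit transcript except ATP15. Log2 differences of NTT1 against WT ranged from -0.19 for ATP15 (SE 0.13, adjusted p 0.999) to 0.036 for ATP4 (SE 0.096, adjusted p 0.999), with a median of -0.007. No member was called or had an unadjusted p under 0.05, against 0.065% and 4.52% of all genes. DESeq2 called none of them (0.176% of its genes), and none was called without untreated WT replicate 3 (0.0971% of all genes). ATP15 was the one member with separate ranges, lower in NTT1, as were those of 7.97% of all genes.

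Without ATP, all 10 members had a positive difference of NTT1 over WT, with none called. Differences on the log2 scale ranged from 0.17 for ATP17 (SE 0.11, adjusted p 0.692) to 0.38 for ATP14 (SE 0.11, adjusted p 0.339), with a median of 0.24 over the members and 0.001 over all genes. The adjusted threshold was passed by 0.0487% of all genes, and DESeq2 called no member and 0.652% of its genes. ATP4 (0.27, SE 0.096), ATP7 (0.30, SE 0.11) and ATP14 had an unadjusted p under 0.05, which 3.18% of all genes had in that direction. For ATP4 and ATP14 untreated NTT1 lay above untreated WT in every library, as it did for 4.27% of all genes. This comparison shares the untreated WT libraries with that of ATP in WT, so the positive values in both are not separate evidence. The members' median was 0.23 without untreated WT replicate 3, when 9.74% of all genes and no member were called. It was 0.14 without replicate 2 and 0.36 without replicate 1.

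The difference between the ATP effects of the strains was tested directly as an interaction. Taken as the NTT1 effect less the WT effect, it was negative for all 10 members, from -0.44 for ATP15 (SE 0.19, adjusted p 0.829) to -0.16 for ATP17 (SE 0.16, adjusted p 0.988), with a median of -0.26 over the members and 0.002 over all genes. ATP15 and ATP14 (-0.39, SE 0.16) had an unadjusted p under 0.05, against 2.63% of all genes in that direction. No member was called, nor was any of the 6157 genes (0% of all), while 5.93% of them had an unadjusted p under 0.05 and DESeq2 called 6 genes of 6816 (0.088%), none a member. It is thus not shown that the subunit transcripts responded differently in NTT1 and WT. The members' median interaction was -0.24 without untreated WT replicate 3, when 1.71% of all genes were called, and -0.15 without replicate 2 of NTT1 with ATP.

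**Figure D3:**
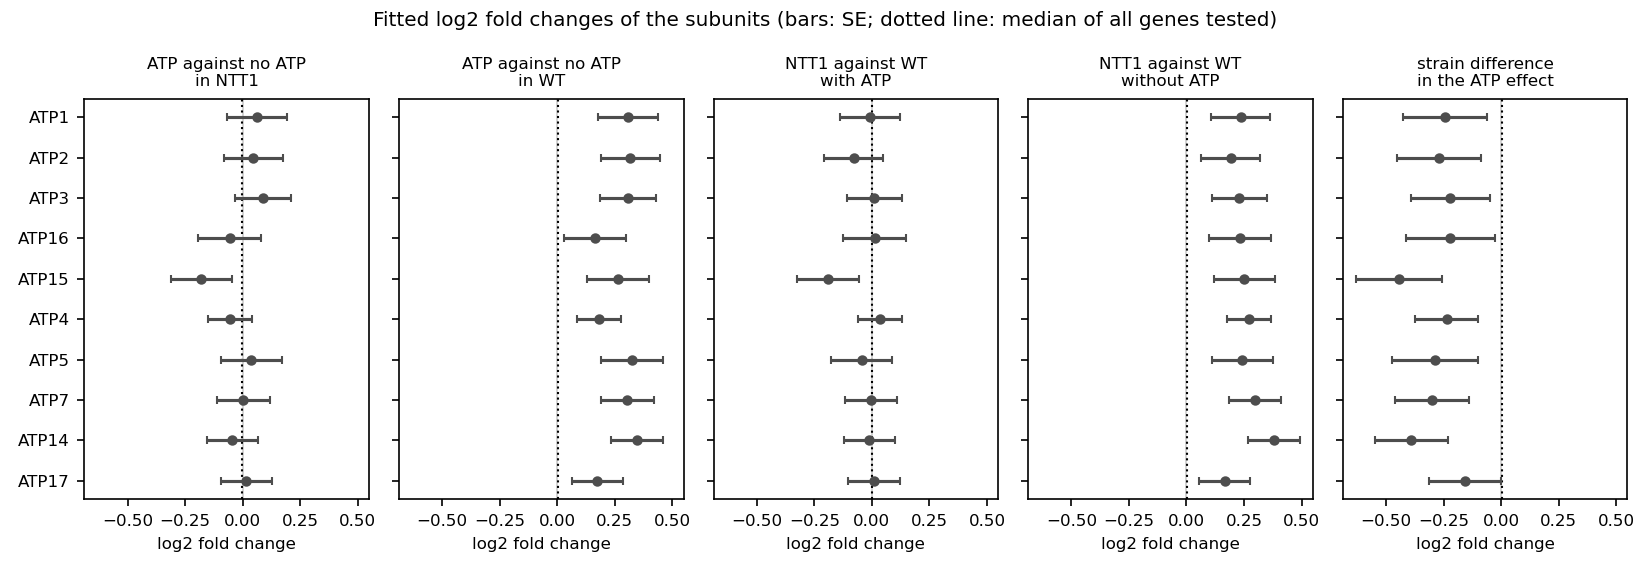
Fitted log2 fold change and SE of each subunit transcript in the 4 comparisons and, at the right, the NTT1 effect of ATP less the WT effect. Dotted lines are the median of all genes tested; values lie on either side of 0 for ATP in NTT1, and all 10 are above 0 for ATP in WT.

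Library by library, the subunit transcripts moved as a block. On the log2 scale, relative to each gene's mean over the 12 libraries, WT without ATP replicate 2 averaged -0.40 and was the lowest of the 12 for all 10 members. Replicate 3 of that group averaged -0.21 with all 10 members below their mean, and replicate 1 averaged 0.021 with 5 above and 5 below. In WT with ATP the means were 0.005, 0.14 and 0.11. Replicate 2 of NTT1 with ATP averaged -0.16 with all 10 members below their mean, while replicates 1 and 3 averaged 0.16 and 0.14. In NTT1 without ATP the means were 0.15, 0.11 and -0.072. A single library therefore shifted every member at once, and the untreated WT group held both the lowest libraries and one at the general mean.

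The block is seen in the size of the spread. The SD of log2 CPM over the 12 libraries had a median of 0.19 over the members (0.15 to 0.21), against 0.15 over all genes tested and 0.13 over the 2064 genes at or above the lowest member in mean CPM. Taken relative to the mean of the other members in the same library, the SD was 0.066 (0.046 to 0.10). This relative SD was not computed for other gene lists, so the closeness is not shown to be particular to these genes. Over the 12 libraries ATP15 kept least closely to the others (0.10) and ATP7 most closely (0.046). Within groups the SD was 0.17 for the members' levels and 0.062 relative to the other members, with ATP14 least close (0.086) and ATP3 most close (0.036). The ratio per kb of ATP15 to ATP16, both of the central stalk, averaged 1.71 ± 0.062 in NTT1 with ATP, 1.85 ± 0.047 in NTT1 without ATP, 1.97 ± 0.13 in WT with ATP and 1.83 ± 0.079 in WT without ATP. That of ATP14 to ATP4, both of the peripheral stalk, lay between 0.490 and 0.650 in all libraries.

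**Figure D4:**
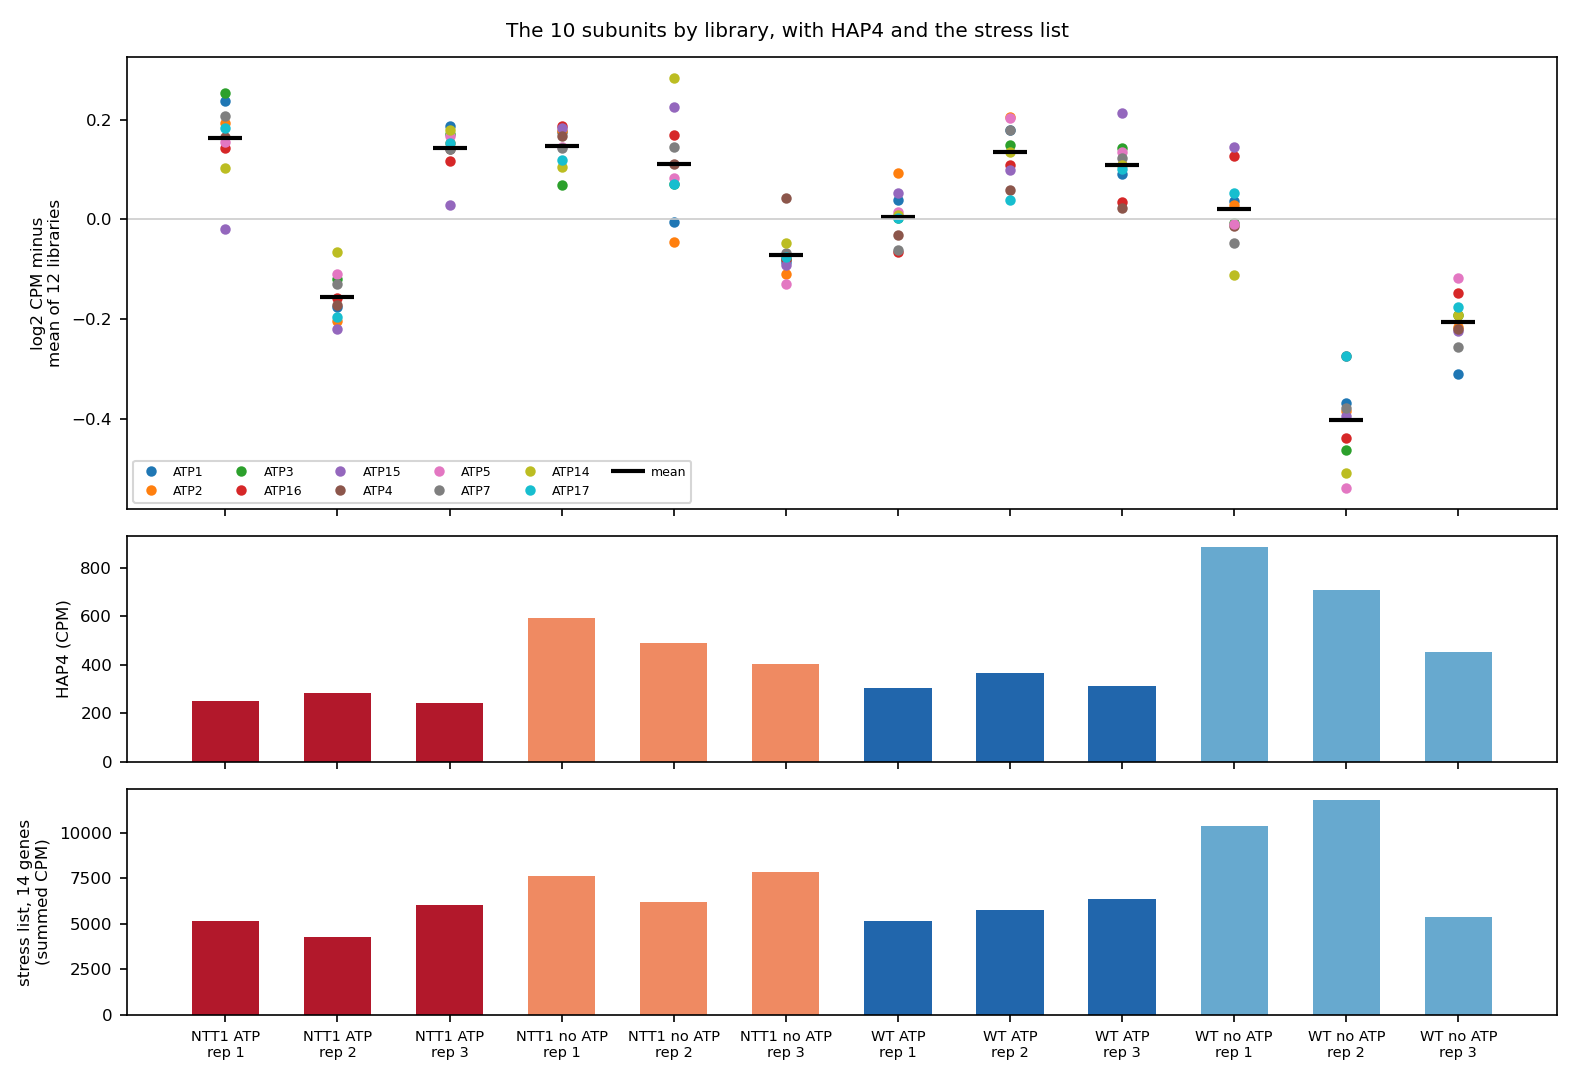
Top: log2 CPM of each subunit transcript minus its mean over the 12 libraries, with the mean of the 10 as a black bar. Middle and bottom: CPM of HAP4 and summed CPM of 14 general stress genes in the same libraries. Untreated WT replicate 2 is lowest at the top and highest at the bottom, where untreated WT replicate 1 is next.

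The remaining ATP synthase subunits and the regulators of the enzyme make a list of 10 genes, of which 7 were tested. These are TIM11, ATP18, ATP19 and ATP20 (small subunits of the membrane part), INH1 and STF1 (inhibitors of ATP hydrolysis) and STF2 (a factor known to stabilise the inhibited enzyme). With all 12 libraries none was called in any comparison, while 4.47% of all genes were for ATP in NTT1 and 12.7% for ATP in WT. With ATP in NTT1 the median was -0.21, with 6 of 7 below 0, and with ATP in WT it was 0.27, with 5 of 7 above 0. ATP20 was at 54.8, 40.9 and 55.1 CPM in NTT1 with ATP and at 50.4, 55.4 and 42.2 CPM in NTT1 without ATP. It was at 48.3, 49.4 and 56.8 CPM in WT with ATP and at 44.5, 32.9 and 38.9 CPM in WT without ATP, a log2 change of 0.41 in WT (SE 0.15, adjusted p 0.0885). Like ATP14, it had separate WT groups. In the interaction all 7 were below 0, with a median of -0.38 and the smallest p for ATP18 (-0.55, SE 0.19, adjusted p 0.722). STF2 and STF1 did not follow the structural subunits in untreated WT: STF2 was at 350.5, 338 and 168 CPM and STF1 at 91.6, 119 and 54.6 CPM, lowest in replicate 3 and not in replicate 2. Without that replicate STF2 was called lower with ATP in both strains, at -0.52 in NTT1 (adjusted p 0.00122) and -0.67 in WT (adjusted p 0.000175), against adjusted p of 0.182 and 0.233 with all 12 libraries. It was then also called lower in NTT1 than in WT without ATP (-0.33, adjusted p 0.0336). In each strain the STF2 call with ATP was made in 1 of the 12 fits that left out 1 library. Adjusted p over these fits reached 0.369 in NTT1 and 0.562 in WT. The fit of the NTT1 groups alone called STF2 (adjusted p 0.00683), and that of the WT groups alone did not (adjusted p 0.411). DESeq2 called it in neither strain (adjusted p 0.114 and 0.202).

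The subunits encoded in mitochondrial DNA could not be followed. ATP8 had 0 counts in every library, which over the 213323585 counts of all libraries allows a level of up to 0.0141 CPM (3 counts, counting error only). ATP6 had 0 to 2 counts a library and 10 in all, and OLI1, which encodes subunit c of the rotor ring, 0 to 2 a library and 5 in all. They were not tested.

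HAP4, for the activating subunit of the HAP complex, was lower with ATP in both strains. It was at 252, 285 and 244 CPM in NTT1 with ATP and at 594, 489 and 405 CPM in NTT1 without ATP, a log2 change of -0.93 (SE 0.21, adjusted p 0.0335). It was at 306, 367 and 312 CPM in WT with ATP and at 886, 709 and 451 CPM in WT without ATP, a log2 change of -1.05 (SE 0.21, adjusted p 0.0158). Treated and untreated libraries were separate in both strains. The untreated WT library with the lowest HAP4 was replicate 3, while the subunit transcripts were lowest in replicate 2. In WT the call was lost without untreated replicate 1 (-0.82, adjusted p 0.0587) and without treated replicates 1 (-1.01, adjusted p 0.0668) or 3 (-1.02, adjusted p 0.0692). In NTT1 it held in 5 of the 12 fits that left out 1 library, with adjusted p from 0.00132 to 0.130. In the fit of the WT groups alone HAP4 was not called for ATP (adjusted p 0.103). Of the other 4 HAP genes, HAP3 (a DNA-binding subunit) was called higher with ATP in WT, by 0.34 (SE 0.076, adjusted p 0.0217), and with all 12 libraries none was called in NTT1 or in the other comparisons. HAP1, which encodes a separate activator that responds to haem, was at 0.45 with ATP in NTT1 (adjusted p 0.0641) and was called without untreated WT replicate 3 (adjusted p 0.0298) or 2 (adjusted p 0.0343) and by DESeq2 (adjusted p 0.0131). HAP2, for another DNA-binding subunit, was called lower with ATP without replicate 3, at -0.30 in NTT1 (adjusted p 0.0214) and -0.35 in WT (adjusted p 0.00950). Between the strains HAP4 was at -0.34 (adjusted p 0.999) with ATP and -0.46 (adjusted p 0.515) without, neither past the threshold. Without untreated WT replicate 3, HAP4 was called lower in NTT1 than in WT without ATP, at -0.69 (SE 0.15, adjusted p 0.0192), and HAP3 higher, at 0.32 (adjusted p 0.0150).

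The factors that assemble the enzyme or express its mitochondrial genes had no common direction. Of 12 genes, 2 were called higher with ATP in WT (5.42% of all genes were), ATP12 (a chaperone of F1) by 0.31 (SE 0.085, adjusted p 0.0382) and ATP23 (a protease and chaperone for Atp6) by 0.31 (adjusted p 0.0494). Another 2 were called lower (7.31% of all genes were), ATP10 (an assembly factor for Atp6) at -0.51 (SE 0.13, adjusted p 0.0302) and NCA2 (needed for expression of the ATP8 and ATP6 message) at -0.46 (adjusted p 0.0451). The list's median was 0.004 in WT and -0.047 in NTT1, where none was called with all 12 libraries. Without untreated WT replicate 3, NCA2 was called lower with ATP in NTT1 (-0.29, adjusted p 0.0191). So was FMC1, a factor for F1 assembly (-0.23, adjusted p 0.0329). The count called lower with ATP in WT was then 4. Of all genes 7.41% were called lower with ATP in NTT1 and 17.4% in WT in that fit. NCA2 was there also called lower in NTT1 than in WT without ATP (-0.31, adjusted p 0.0325). The calls in WT and that of HAP3 depended on single libraries, and none was made in the fit of the WT groups alone (adjusted p 0.112 to 0.187). Without untreated WT replicate 2 the adjusted p was 0.0709 for HAP3, 0.0918 for ATP12, 0.147 for ATP23, 0.0940 for ATP10 and 0.134 for NCA2, and without WT with ATP replicate 1 it was 0.0790, 0.105, 0.141, 0.0695 and 0.123. Over the 12 fits that left out 1 library each, HAP3 and ATP10 were called in 7, ATP12 and NCA2 in 2 and ATP23 in 1.

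The respiratory chain, which makes the proton gradient the enzyme uses, was represented by 27 nuclear genes. With ATP in NTT1, 20 of them were below 0 with a median of -0.11 and none was called with all 12 libraries, against 4.47% of all genes. With ATP in WT, 20 were above 0 with a median of 0.17. CYC7, a minor isoform of cytochrome c, was the one gene called there, lower with ATP at -1.74 (SE 0.36, adjusted p 0.0183). Of all genes 12.7% were called with ATP in WT, 7.31% as lower. It was at 6.77, 8.16 and 6.55 CPM in WT with ATP and at 33.3, 29.3 and 9.19 CPM in WT without ATP. The call was lost without any other WT library than untreated replicate 3 (adjusted p up to 0.0746), and in the fit of the WT groups alone (adjusted p 0.118). Without untreated WT replicate 3, 3 genes of the list were called lower with ATP in NTT1 (CYC7, SDH4 and COX5B). In WT 4 were called lower (the same 3 and NDI1). Of all genes 7.41% were called lower with ATP in NTT1 and 17.4% in WT in that fit. CYC7 was then also called lower in NTT1 than in WT without ATP (-1.05, adjusted p 0.00129). CYC7 and COX5B, a minor isoform of a cytochrome oxidase subunit, were also called lower in NTT1 without replicate 2 and by DESeq2. COX4, for another cytochrome oxidase subunit, was called higher with ATP in WT by DESeq2 (0.44, adjusted p 0.0370). Its adjusted p by edgeR was 0.0781 with all 12 libraries. Without ATP the list's median for NTT1 against WT was 0.24, and the interaction's median was -0.23, with none called with all 12 libraries. Of the carriers of ADP, ATP and phosphate across the inner membrane (5 genes), none was called in any comparison with all 12 libraries, with medians of -0.19 for ATP in NTT1 and -0.13 in WT. Without untreated WT replicate 3, PIC2 (a carrier of phosphate and copper) was called lower with ATP, at -0.48 in NTT1 (adjusted p 0.00558) and -0.37 in WT (adjusted p 0.0178), and DESeq2 also called it in NTT1 (adjusted p 0.0392). The vacuolar ATPase, a related proton pump that hydrolyses ATP, had medians of -0.047 in NTT1 and 0.021 in WT over 15 genes, with none called in any comparison with all 12 libraries. For ATP in WT, STV1 was called lower without untreated WT replicate 3 (-0.25, adjusted p 0.0147) and VPH1 lower by DESeq2 (-0.16, adjusted p 0.00961), both isoforms of the same membrane subunit.

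Part of a list of general stress and reserve carbohydrate genes was lower with ATP. Of 14 genes, 3 were called lower with ATP in NTT1 (HSP42, GSY1 and HSP104) and 8 in WT, against 1.49% and 7.31% of all genes, with medians of -0.67 and -0.99. Over the fits that left out 1 library these counts ranged from 0 to 9 in NTT1 and from 1 to 10 in WT. Without untreated WT replicate 3, 7.41% of all genes were called lower with ATP in NTT1 and 17.4% in WT. In that fit 9 of the list were called lower in NTT1 than in WT without ATP, against 5.13% of all genes. PGM2 (1.16, adjusted p 0.0365) and TSL1 (1.49, adjusted p 0.0250) were then called higher for the interaction, against 0.68% of all genes. With all 12 libraries no gene was called for the interaction. HSP42, a small chaperone, was at -1.27 in NTT1 (SE 0.22, adjusted p 0.0110) and -1.36 in WT (SE 0.22, adjusted p 0.00916), where the fit of the WT groups alone did not call it (adjusted p 0.10) or any other gene of the list. Their summed level was 5160, 4274 and 6027 CPM in NTT1 with ATP and 7606, 6204 and 7853 CPM in NTT1 without ATP. It was 5176, 5730 and 6341 CPM in WT with ATP and 10371, 11798 and 5371 CPM in WT without ATP. Untreated WT replicate 2, the lowest library for every ATP synthase member, had the highest stress sum. Against untreated WT replicate 1, however, the genes of the list went either way. HSP12 was at 2341 CPM in replicate 2 and 1508 in replicate 1, and HSP26 at 863 and 248 CPM. GSY1 was at 598 and 807 CPM and GSY2 at 731 and 848 CPM. The order of these 2 libraries in the sum thus rests largely on HSP12 and HSP26, neither of which was called with ATP. Replicate 1 had a high stress sum with the members at their general mean, while replicate 3 had a stress sum within the range of treated WT and low ATP synthase levels. The part of this in the members' differences was not tested.

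**Figure D5:**
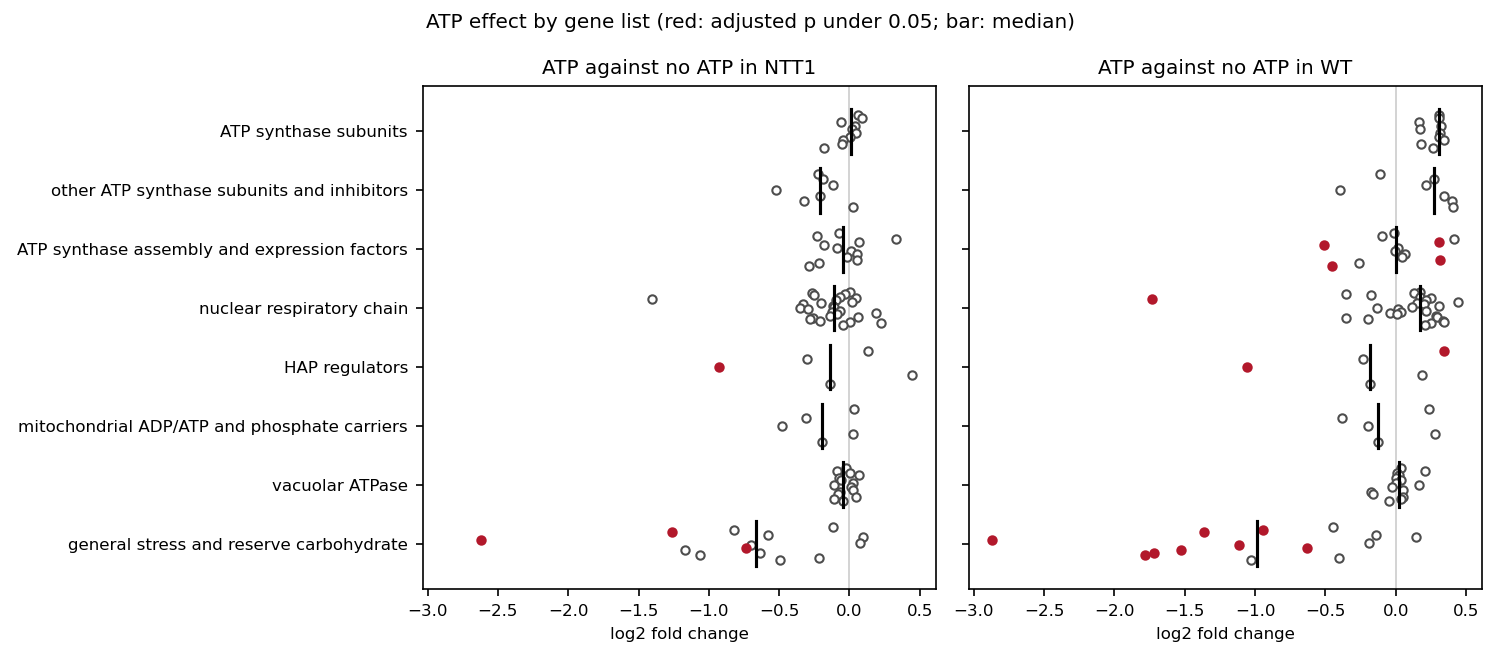
Log2 fold change with ATP of each gene tested in 8 lists, in NTT1 (left) and WT (right). Red points passed an adjusted p of 0.05 and bars are medians; no ATP synthase subunit is red, and HAP4 and stress genes are red to the left of 0 in both strains.

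The genes whose levels followed the members most closely over the 12 libraries were sought by the root mean square difference of centred log2 CPM from the members' mean. The closest 5 were COX8 (0.0408), COX5A (0.0574), COR1 (0.0618), MOG1 (0.0630) and ATX1 (0.0641). COX8 and COX5A encode subunits of cytochrome c oxidase, COR1 a core subunit of the cytochrome bc1 complex, MOG1 a nuclear import factor and ATX1 a copper chaperone. Each member measured against the other members gave 0.0436 to 0.0995, and the median over all other genes was 0.222. COX8 was at 136, 109 and 140.2 CPM in NTT1 with ATP and at 128, 125 and 117 CPM in NTT1 without ATP. It was at 117, 132 and 132 CPM in WT with ATP and at 121, 90.4 and 100.5 CPM in WT without ATP, again with replicate 2 lowest. The median difference from the members' mean was 0.120 for the list of other subunits, 0.129 for the respiratory chain and 0.162 for the vacuolar ATPase. Smaller values are more alike, but a gene that changes little between libraries can also score as low as the vacuolar ATPase. Its value is therefore not read as following the members.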

How the data were processed

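Per the labels' protocols, a Zymo Research column kit gave total RNA and an Illumina TruSeq kit the libraries. The deposited values are raw counts, whole numbers with a row per gene and a column per library. Per the submitters' processing notes, HISAT2 2.0.5, featureCounts 1.5.0, DESeq2 1.20.0 and build R64 were used, with no role given. The use of strand and the annotation are not given in the sources used here, so overlapping genes are uncertain. RefSeq R64 named 6023 of 7127 features, and unnamed features held 0.282% of counts. Of all features, 311 had 0 counts in every library.

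Groups were taken from the sample titles. The quasi-likelihood F-test of edgeR 4.0.16 (R 4.3.3) was run on the counts. Libraries were scaled by TMM, low genes were removed by filterByExpr (99.99% of counts kept), all 12 libraries entered 1 fit, and the Benjamini-Hochberg adjustment covered all 6157 genes. Log2 CPM for spread and likeness used a prior count of 2. Standard errors are approximate, from the fold change and F statistic. Library totals give each depth. The labels call the samples biological replicates. The fit was tested on simulated counts.

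Alternatives were other size factors (RLE, upper quartile), no filter, DESeq2 1.42.0, a replicate block, the compared groups alone, and each library left out. The members and lists were chosen with earlier results of these data known. All members are named. In the lists, rising and falling genes with the lowest p may be named, 1 per direction and comparison. ATP23, FMC1, COX5B, SDH4, NDI1, GSY1, HSP104, PGM2, TIM11 and INH1 fall outside that rule, as do NCA2, HAP2, PIC2 and STV1 in some comparisons, and were named after their values were seen. YLR294C was too. No protein sequences were used here.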

Additional observations from a re-analysis of the deposited data

How the results depend on the processing

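The members' median log2 change stayed on its side of 0 for ATP in WT (0.19 to 0.42 over the 12 fits that left out 1 library each), for NTT1 against WT without ATP (0.14 to 0.36) and for the interaction (-0.38 to -0.15). The other medians crossed 0, at -0.056 to 0.10 for ATP in NTT1 and -0.070 to 0.097 for NTT1 against WT with ATP. The count of members called was 0 in the main analysis and in every alternative, except ATP in WT, where it was 1 (ATP14) under DESeq2 and 0 to 1 over the fits that left out 1 library. In fits of the compared groups alone 15.6% of all genes were called for ATP in NTT1 (4.47% with all 12 libraries) and 0.311% for ATP in WT (12.7%). Under upper-quartile factors the change with ATP in NTT1 was -0.032 for ATP7 and -0.020 for ATP17, against 0.003 and 0.016 under TMM.

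Members near 0 changed sign when 1 library was left out. For ATP in NTT1 the ranges were -0.015 to 0.17 for ATP1, -0.026 to 0.16 for ATP2, -0.14 to 0.027 for ATP16, -0.12 to 0.039 for ATP4, -0.039 to 0.12 for ATP5, -0.065 to 0.092 for ATP7, -0.12 to 0.045 for ATP14 and -0.052 to 0.12 for ATP17. For NTT1 against WT with ATP they were -0.086 to 0.11 for ATP1, -0.15 to 0.038 for ATP2, -0.067 to 0.11 for ATP3, -0.043 to 0.10 for ATP16, -0.024 to 0.14 for ATP4, -0.094 to 0.041 for ATP5, -0.072 to 0.091 for ATP7, -0.065 to 0.057 for ATP14 and -0.059 to 0.12 for ATP17. None of these was called, and the cause was not tested.

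Replicate numbers showed no sign of pairing the libraries. Of 18 same-numbered pairs, 5 had a correlation of deviations over 0.1 (-0.44 to 0.31), and a library was closest to its own number in 13 of 36 comparisons. With 3 libraries a group this check cannot exclude cultures that were paired or grown in batches. With a replicate block, the members' medians were 0.005 for ATP in NTT1, 0.32 for ATP in WT, -0.012 and 0.25 for the strains with and without ATP and -0.28 for the interaction, with 0 members called. Depth did not limit the members, which had at least 1110 counts in a library; 3 libraries a group limit what differences can be seen.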
